A study of Arabidopsis thaliana with 18 samples.

Results

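The transcripts described here are those counted on the mitochondrial genome of Arabidopsis thaliana, in seedlings mutated in genes that act on the histone variant H2A.Z. They were taken as the genes of the count table whose identifier starts with ATMG, the prefix of mitochondrial genes, and which had at least 10 counts summed over the 18 libraries. This gave 59 members of the 33602 genes in the table, out of 146 ATMG genes. Among the remaining ATMG genes, 57 had no count at all and 30 had between 1 and 9. The members nearest to the threshold were ATMG01020 with 12 counts and ATMG00010, ATMG00490 and ATMG01010 with 14 each, while ATMG00130 with 9 counts and ATMG00250 with 7 fell just outside it.

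RNA-seq libraries came from whole seedlings of 6 genotypes in the Col-0 ecotype, 3 libraries each, grown for 14 days on MS medium at 22 °C in long days (16 h light, 8 h dark). The genotypes were the atchz1ab line, for which the labels give no allele; hta9hta11, carrying hta9-1 and hta11-2; atchz1ab hta9hta11, carrying both; arp6, carrying arp6-1; atchz1ab arp6, carrying both; and Col-0, the wild type. HTA9 and HTA11 encode H2A.Z, ARP6 belongs to SWR1, the remodelling complex that puts H2A.Z into nucleosomes, and Chz1 of yeast, after which AtChz1 is named, is a chaperone of H2A.Z. Nothing in the labels says that replicates came from separate cultures: every p-value is set against the spread of these samples alone, and that spread may be technical. Whole seedlings mix organs, and fewer cells of a type and less RNA per cell cannot be told apart.

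Plant mitochondria keep a genome of their own, which encodes ribosomal and transfer RNAs, some ribosomal proteins and a core set of subunits of the respiratory chain and of the ATP synthase. All other mitochondrial proteins, including the RNA polymerases and the RNA processing and editing factors that serve these transcripts, are encoded in the nucleus. In plant mitochondria a poly(A) tail is as a rule short-lived and marks an RNA for breakdown, so a kit that captures poly(A) RNA, as used here, reads mitochondrial transcripts in part only, and a level is a level of captured RNA.

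The table gives identifiers without names, and the RefSeq annotation gives a name for 19 of the 59 members in its notes, 16 of them with more than "unknown protein". Members are therefore given by identifier, with a name only where such a note has one, and the leading members have none. They are ordered by their counts, which are not divided by gene length.

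Much of the mitochondrial genome of this plant also stands, as a recent copy, in nuclear chromosome 2, which bears on which gene a read can be assigned to. In the TAIR10.1 assembly, 268210 of the 367808 mitochondrial bases (72.9%) had a nuclear match of at least 99% identity over at least 100 bases. The main copy, picked after looking at the matches, ran from base 3239038 to base 3509765 of chromosome 2, 270728 bases. Its matches held 292311 aligned bases, more than the stretch is long, since matches that overlap were each counted. Of these aligned bases 0.0732% were mismatched, gaps not counted. Only matches of at least 99% identity entered, which limited this rate beforehand. The opening bases of the coding sequences of 2 named members are shown because they are letter for letter the same in both genomes. The first belongs to ATMG00990, named NADH dehydrogenase 3 in a RefSeq note (RefSeq gene nad3), a subunit of complex I, and its copy is AT2G07751 at chr2:3270008-3270097, plus strand. The second belongs to ATMG00730, named cytochrome c oxidase subunit 3 (RefSeq gene cox3), a core subunit of complex IV, and its copy is AT2G07687 at chr2:3312562-3312651, minus strand. The first 90 bases of each are printed 5′ to 3′ from RefSeq's TAIR10.1, and no base is in capitals because capitals would mark a difference between the 2 genomes.
ATMG00990 and AT2G07751: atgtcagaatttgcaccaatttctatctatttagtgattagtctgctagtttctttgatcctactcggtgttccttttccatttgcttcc
ATMG00730 and AT2G07687: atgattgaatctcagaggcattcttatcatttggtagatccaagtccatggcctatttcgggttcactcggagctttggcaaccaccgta

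The nuclear match covered all 357 bases of the span of nad3 and all 798 of cox3. By the genomic sequence of TAIR10.1, a read identical to both genomes cannot be told from a read of the copy. The counts were made on TAIR10, whose mitochondrial sequence differs, and reads changed by RNA editing were not considered. The treatment of reads with several matches remains not given in the sources used here. Calls for members with such a copy are therefore uncertain as to their genome of origin. RefSeq notes of 20 genes in chromosome 2 refer to a member as their closest match or parent, 20 members in all (the 19 above and ATMG01330, to which a note refers without a name), and 6 of these nuclear genes had enough counts to be tested. Over the 18 libraries, ATMG00990 had 169 counts and AT2G07751 had 154, while ATMG00730 had 28 counts and AT2G07687 had 215. For ATMG01190, named ATP synthase subunit 1, 25 counts stood beside 1107 on AT2G07698. For ATMG01090, named ATP synthase 9, the order was turned round, with 237 counts on the member and 3 on AT2G07777. The genes numbered AT2G07620 to AT2G07850, 150 in all, summed to 83.8 ± 3.50 CPM in atchz1ab, 94.2 ± 6.67 in hta9hta11, 78.5 ± 2.41 in atchz1ab hta9hta11, 111.5 ± 2.99 in arp6 and 88.8 ± 1.98 in atchz1ab arp6, against 91.7 ± 5.14 CPM in Col-0 (SD, n = 3 each; CPM are counts scaled to a common library size after TMM normalization). This sum includes MCM5 with 3460 counts over the 18 libraries and ABCC13 with 3103, the 2 with the most counts, both outside the stretch and without a match. The 128 genes that lie in the stretch itself, 56 of them without a count, summed to 45.7 ± 4.55 CPM in atchz1ab, 55.5 ± 5.76 in hta9hta11, 44.8 ± 3.73 in atchz1ab hta9hta11, 56.2 ± 2.40 in arp6 and 38.5 ± 2.27 in atchz1ab arp6, against 52.4 ± 2.66 CPM in Col-0.

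**Figure D1:**
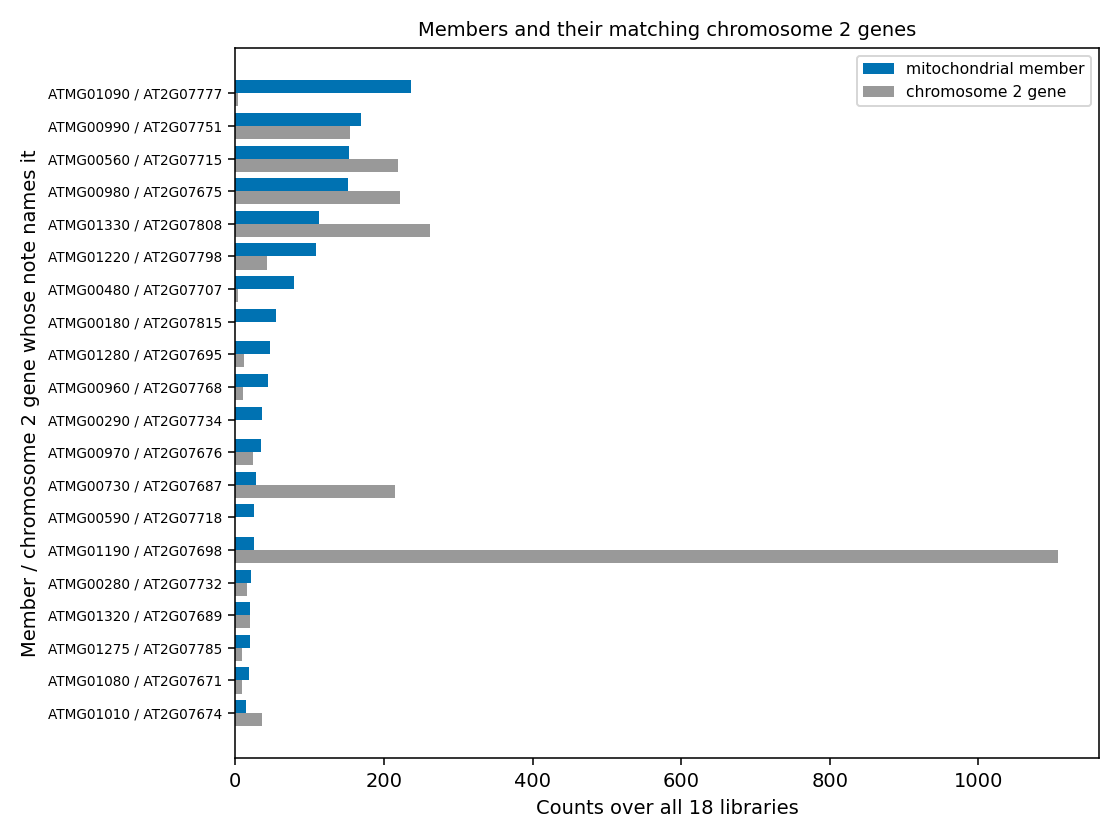
Counts summed over the 18 libraries (horizontal axis) for 20 mitochondrial members (blue) and the chromosome 2 genes whose RefSeq note names them (grey), ordered from top to bottom by the member's counts. ATMG00990 and AT2G07751 had near-equal counts of 169 and 154, and AT2G07698 stood far above its member with 1107 counts against 25.

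Library totals ran from 7163359 to 10744318 counts. The mutated genes followed the labels: ARP6 had no count in arp6 and 1 in atchz1ab arp6, against 714 over the Col-0 libraries. HTA11 averaged 0.832 ± 0.513 CPM in hta9hta11 and 0.811 ± 0.236 CPM in atchz1ab hta9hta11, against 19.5 ± 1.64 CPM in Col-0 (SD, n = 3 each). HTA9 averaged 42.7 ± 1.68 CPM in hta9hta11 and 39.2 ± 2.73 CPM in atchz1ab hta9hta11, against 93.3 ± 5.85 CPM in Col-0. The AtChz1 genes were not read here, so the atchz1ab genotype was not checked.

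Counts were very unevenly spread over the members. ATMG01390 held 374751 counts, 70.1% of all member counts, and ATMG00020 held 143359, or 26.8%. The third, ATMG00640, had 3226 counts. The median member had 101 counts over all 18 libraries, and 29 members had fewer than 100. Only 28 members had enough counts to pass edgeR's filter on low counts (filterByExpr) and be tested, and 31 were not tested. Summed values of all members are thus nearly those of 2 genes, and single values of most members rest on a few counts per library.

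The summed share of library counts on the members differed between genotypes, but hta9hta11 and atchz1ab arp6 overlapped. It was 0.265% ± 0.00285 in atchz1ab, 0.352% ± 0.0025 in hta9hta11, 0.303% ± 0.00381 in atchz1ab hta9hta11, 0.411% ± 0.00561 in arp6 and 0.351% ± 0.00318 in atchz1ab arp6, against 0.385% ± 0.00502 in Col-0 (SD, n = 3 each). After TMM scaling the same sums were 2597 ± 27.1 CPM in atchz1ab, 3467 ± 24.5 in hta9hta11, 2956 ± 38.8 in atchz1ab hta9hta11, 4366 ± 59.2 in arp6 and 3602 ± 44.7 in atchz1ab arp6, against 3765 ± 61.4 CPM in Col-0, so that arp6 lay farther above Col-0, and atchz1ab arp6 nearer to it, than in the share. Relative to Col-0 the unscaled share differed by -31.1% in atchz1ab, -8.65% in hta9hta11, -21.2% in atchz1ab hta9hta11, 6.81% in arp6 and -8.84% in atchz1ab arp6. Relative to their parents it differed by -13.8% in atchz1ab hta9hta11 against hta9hta11 and by -14.7% in atchz1ab arp6 against arp6. In all 7 comparisons the 3 libraries of one genotype lay apart from the 3 of the other (exact permutation p = 0.1, 2-sided, the smallest that 3 against 3 allow).

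A set of 3 genes was left out together: ATMG01390, ATMG00020 and ATMG01380, the last with only 101 counts. They form a list planned as mitochondrial ribosomal RNAs, a role that the annotation used here does not give. Without them, the other 56 members together stood at 89.0 ± 4.61 CPM in atchz1ab, 118.7 ± 1.99 in hta9hta11, 100.9 ± 2.14 in atchz1ab hta9hta11, 121.9 ± 4.53 in arp6 and 95.1 ± 5.37 in atchz1ab arp6, against 114.6 ± 7.53 in Col-0 (SD, n = 3 each). In the share of counts, the difference from Col-0 was then 0.000317 percentage points in hta9hta11 and -0.000235 in arp6, each with the sign opposite to that of the full sum (exact permutation p = 0.8 and 0.7, 2-sided, n = 3 each). The chloroplast genes, 133 in the table and also read through poly(A) capture, took 1.33% ± 0.01 of counts in atchz1ab, 1.75% ± 0.019 in hta9hta11, 1.43% ± 0.00823 in atchz1ab hta9hta11, 1.76% ± 0.0457 in arp6 and 1.40% ± 0.0198 in atchz1ab arp6, against 1.74% ± 0.0156 in Col-0. Of 92 chloroplast genes tested, 6 were called higher and 40 lower in atchz1ab than in Col-0, where 11.7% of all genes tested were called. The counts were 11 higher and 2 lower in hta9hta11 (11.2% of all genes), 2 and 37 in atchz1ab hta9hta11 (11.5%), 24 and 6 in arp6 (49.7%) and 7 and 46 in atchz1ab arp6 (45.9%), each against Col-0.

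**Figure D2:**
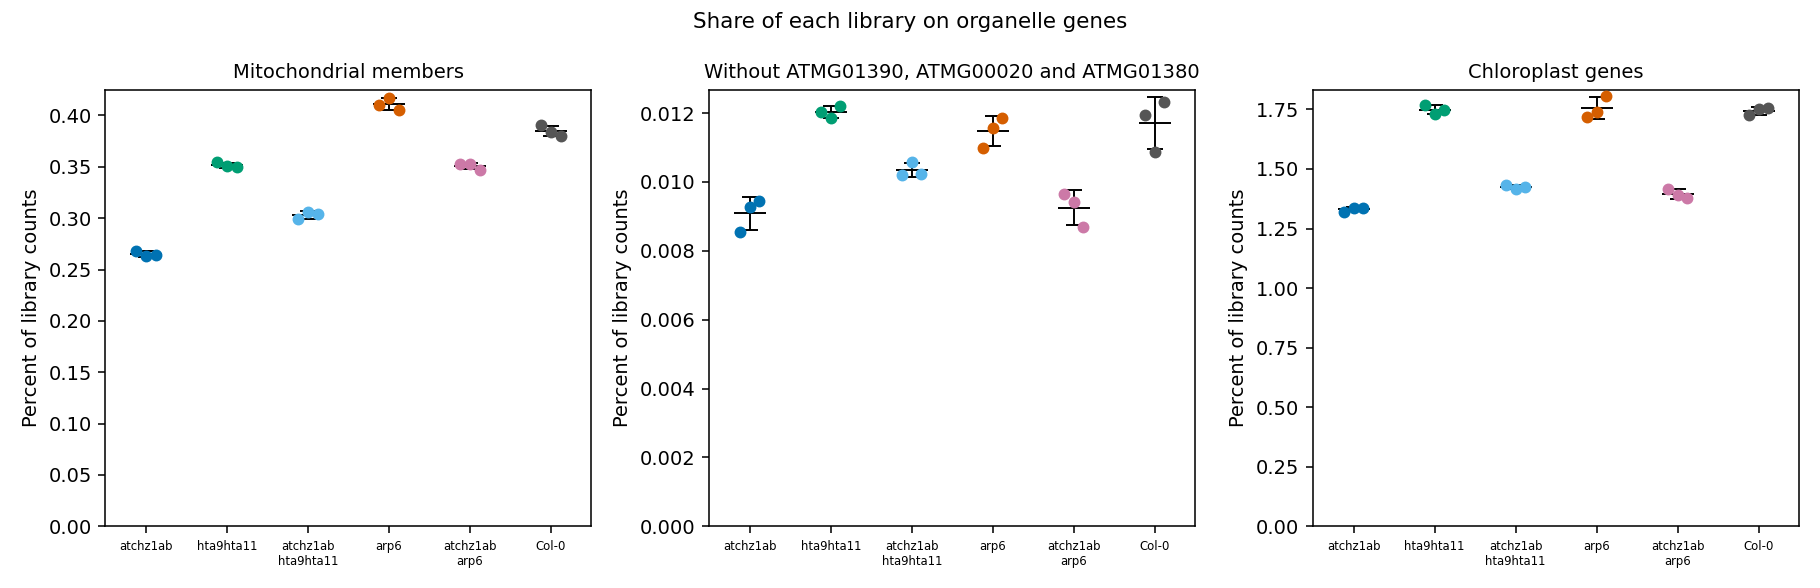
Percent of library counts (vertical axes, from 0) on the 59 mitochondrial members (left), on the 56 members left without ATMG01390, ATMG00020 and ATMG01380 (middle) and on the chloroplast genes (right), for 6 genotypes; points are libraries, bars the mean ± SD. On the left atchz1ab is lowest at 0.265% and arp6 highest at 0.411%, with Col-0 at 0.385%, while in the middle arp6 and hta9hta11 lie among the Col-0 libraries.

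In CPM after TMM scaling, the 2 members with the most counts, ATMG01390 and ATMG00020, ordered the 6 genotypes in the same way. In atchz1ab the libraries had 1836, 1788 and 1816 CPM of ATMG01390, in hta9hta11 2457, 2433 and 2426, in atchz1ab hta9hta11 2082, 2142 and 2119, in arp6 3043, 3052 and 2986, in atchz1ab arp6 2529, 2538 and 2483, and in Col-0 2676, 2623 and 2566. From low to high the order was atchz1ab, atchz1ab hta9hta11, hta9hta11, atchz1ab arp6, Col-0 and arp6, and no genotype overlapped its neighbour. For ATMG00020 the libraries had 706.6, 696.0 and 678.5 CPM in atchz1ab, 918.4, 898.2 and 909.0 in hta9hta11, 731.9, 742.5 and 747.5 in atchz1ab hta9hta11, 1201, 1252 and 1196 in arp6, 986.9, 1002 and 979.5 in atchz1ab arp6, and 1040, 1019 and 1027 in Col-0. The order of the 6 genotypes was the same, again with no overlap between neighbours. This shared order depends on TMM. With library totals instead, ATMG01390 had a log2 fold change of -0.13 in atchz1ab arp6 against Col-0. That is below every alternative value of hta9hta11 against Col-0, the lowest of which was -0.12, so these 2 genotypes changed places. For ATMG00020 they did not.

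**Figure D3:**
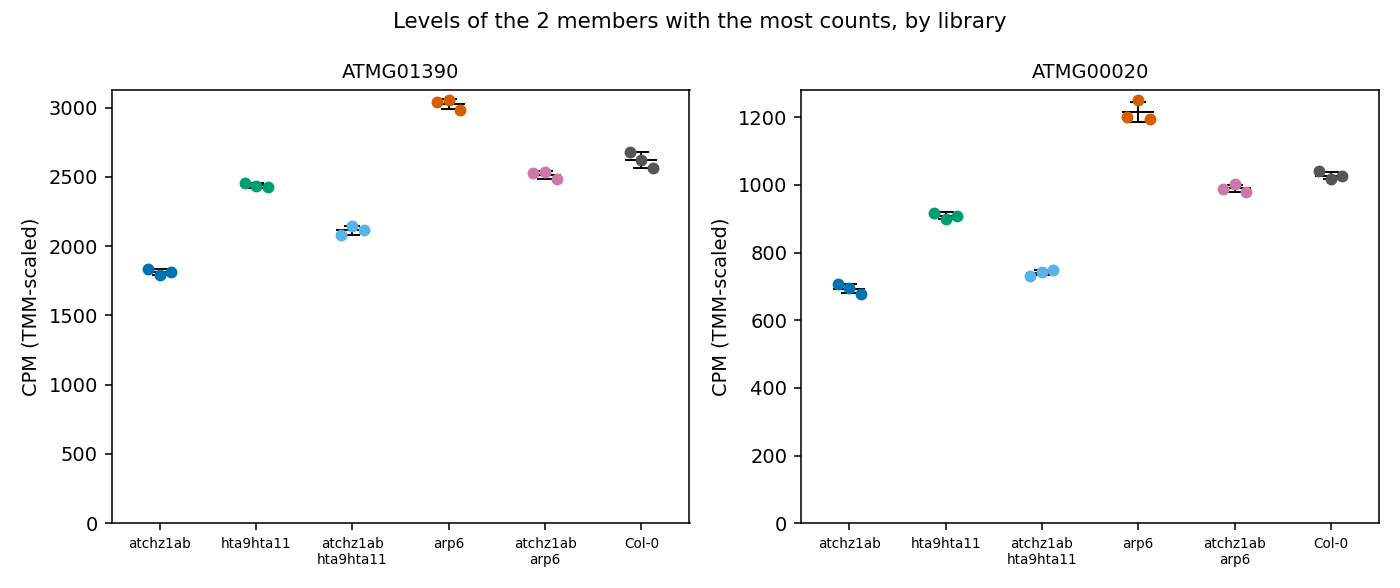
Levels in CPM after TMM scaling (vertical axes, from 0) of ATMG01390 (left) and ATMG00020 (right) in each library of the 6 genotypes; points are libraries and bars the mean ± SD. Both panels show the lowest level in atchz1ab, with means of 1813 and 693.7 CPM, and the highest in arp6, with means of 3027 and 1216 CPM.

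The counts of ATMG01390 per count of ATMG00020 were 2.62 ± 0.0555 in atchz1ab, 2.69 ± 0.0215 in hta9hta11, 2.86 ± 0.027 in atchz1ab hta9hta11, 2.49 ± 0.0478 in arp6 and 2.54 ± 0.0168 in atchz1ab arp6, against 2.55 ± 0.0432 in Col-0 (SD, n = 3 each). The largest distance from Col-0 was that of atchz1ab hta9hta11, 12% higher and without overlap (exact permutation p = 0.1, 2-sided). In hta9hta11 the ratio was 5.32% higher than in Col-0, also without overlap (exact permutation p = 0.1), while atchz1ab, arp6 and atchz1ab arp6 overlapped Col-0 (exact permutation p = 0.3, 0.2 and 0.8).

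In atchz1ab against Col-0, 8 of the 28 tested members were lower and 0 were higher, with 31 members untested, where 11.7% of all 18906 genes tested were called, 6.15% higher and 5.55% lower (edgeR, adjusted p under 0.05). The 8 were ATMG01390, ATMG00020, ATMG00090, ATMG01360, ATMG00060, ATMG00070, ATMG00160 and ATMG00560. The median log2 fold change of the 28 was -0.44, with values from -1.71 to 1.08, beside a median of -0.0003 over all genes. ATMG01390 fell by 0.53 ± 0.02 (SE) and ATMG00020 by 0.57 ± 0.02 on the log2 scale, to 0.692 and 0.675 of the Col-0 level (edgeR adjusted p = 2.07e-62 and 3.07e-53).

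ATMG00060 had 3.17, 2.63 and 4.07 CPM in atchz1ab, against 8.42, 5.77 and 6.25 CPM in Col-0. All atchz1ab libraries lay below all Col-0 libraries, and the level fell by 1.04 ± 0.21 on the log2 scale (edgeR adjusted p = 8.73e-05). ATMG00070 had 3.82, 3.72 and 3.62 CPM in atchz1ab, against 5.70, 5.77 and 6.38 CPM in Col-0, without overlap (log2 fold change -0.67 ± 0.21, edgeR adjusted p = 0.0222). ATMG00090 had 11.03, 9.20 and 10.4 CPM in atchz1ab, against 15.7, 13.8 and 13.6 CPM in Col-0 (log2 fold change -0.49 ± 0.13, edgeR adjusted p = 0.00575). Here too the libraries of the 2 genotypes lay apart.

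ATMG01360 had 7.32, 7.77 and 5.20 CPM in atchz1ab, against 11.1, 9.76 and 10.4 CPM in Col-0 (log2 fold change -0.62 ± 0.16, edgeR adjusted p = 0.00275). The groups did not overlap. ATMG00160 had 2.62, 2.63 and 5.32 CPM in atchz1ab, against 5.32, 4.51 and 7.38 CPM in Col-0, and the third atchz1ab library lay within the Col-0 range (log2 fold change -0.70 ± 0.24, edgeR adjusted p = 0.0364). ATMG00560, which a RefSeq note calls a nucleic acid-binding, OB-fold-like protein, had 2, 7 and 2 counts in atchz1ab, against 9, 18 and 8 counts in Col-0 (log2 fold change -1.71 ± 0.55, edgeR adjusted p = 0.0249). The libraries did not overlap, though the atchz1ab value rests on 11 counts in all. Its partner in chromosome 2, AT2G07715, had a log2 fold change of -0.58 that missed the threshold (edgeR adjusted p = 0.406). By contrast AT2G07687, the partner of the untested ATMG00730, was lower in atchz1ab with a log2 fold change of -1.58 (edgeR adjusted p = 0.0116).

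The calls of ATMG01390, ATMG00020 and ATMG00060 in atchz1ab stayed with any 1 library left out, while without atchz1ab replicate 3 only 5 members were called. With a left-out library, edgeR's adjusted p reached 0.0724 for ATMG01360 without atchz1ab replicate 3, 0.0594 for ATMG00090 without atchz1ab replicate 2 and 0.0567 without Col-0 replicate 1, and 0.0849, 0.0593 and 0.0665 for ATMG00070 without Col-0 replicate 3, atchz1ab replicate 2 or atchz1ab replicate 3. For ATMG00160 it was 0.0524, 0.312, 0.229 and 0.231 without Col-0 replicates 1 or 3 or atchz1ab replicates 1 or 2, and for ATMG00560 it was 0.219, 0.137 and 0.13 without Col-0 replicate 2 or atchz1ab replicates 1 or 3.

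In hta9hta11 against Col-0, 2 of the 28 tested members were lower, ATMG01390 and ATMG00020, and 0 were higher, where 11.2% of all genes tested were called, 5.98% higher and 5.26% lower. ATMG00020 fell by 0.18 ± 0.02 on the log2 scale and ATMG01390 by 0.10 ± 0.01 (edgeR adjusted p = 1.17e-13 and 1.01e-08). These are small differences, to 0.884 and 0.93 of the Col-0 level, seen in 3 of 3 libraries. The median over the tested members was -0.06, beside -0.003 over all genes tested. Among members that were not called, ATMG00640 had 20.8, 22.0 and 18.4 CPM in hta9hta11, against 20.7, 19.1 and 22.6 CPM in Col-0, with full overlap.

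In atchz1ab hta9hta11 against Col-0, 5 of the 28 tested members were lower and 0 were higher, where 11.5% of all genes tested were called, 6.19% higher and 5.32% lower. ATMG00020 fell by 0.47 ± 0.02 and ATMG01390 by 0.31 ± 0.01 on the log2 scale (edgeR adjusted p = 1.57e-45 and 4.98e-39). ATMG00160 had 2.99, 3.19 and 2.47 CPM in atchz1ab hta9hta11, against 5.32, 4.51 and 7.38 CPM in Col-0, without overlap (log2 fold change -0.97 ± 0.24, edgeR adjusted p = 0.00199). ATMG01360 had 6.80, 8.26 and 7.87 CPM in the combined line, against 11.1, 9.76 and 10.4 CPM in Col-0 (log2 fold change -0.45 ± 0.15, edgeR adjusted p = 0.0373). ATMG00080 had 3.54, 4.84 and 3.82 CPM, against 7.30, 5.25 and 6.13 CPM in Col-0 (log2 fold change -0.61 ± 0.21, edgeR adjusted p = 0.039). In both, all 3 libraries of the combined line lay below the Col-0 libraries. The median of the tested members was -0.27, beside -0.003 over all genes.

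For this comparison 3 members were called without Col-0 replicate 1, 2 without Col-0 replicate 3 and 3 without atchz1ab hta9hta11 replicate 1. ATMG00160 reached an edgeR adjusted p of 0.0648 without Col-0 replicate 3. Without Col-0 replicates 1 or 3, or atchz1ab hta9hta11 replicates 1 or 3, edgeR's adjusted p was 0.217, 0.0803, 0.188 and 0.113 for ATMG00080 and 0.139, 0.0817, 0.202 and 0.064 for ATMG01360.

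The arp6 libraries differed from Col-0 the other way for the leading members. In arp6 against Col-0, 6 of the 28 tested members were higher and 2 lower, where 49.7% of all genes tested were called, 24.2% higher and 25.5% lower. ATMG00020 rose by 0.24 ± 0.02 and ATMG01390 by 0.21 ± 0.01 on the log2 scale (edgeR adjusted p = 1.4e-22 and 1.28e-25). Scaling by library totals without TMM, which moved the median of all genes in this comparison by -0.12, left both higher, by 0.12 and 0.09. The median of the 28 was -0.003, beside -0.02 over all genes, with 14 values below 0 and 14 above.

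ATMG01360 had 12.4, 15.6 and 14.6 CPM in arp6, against 11.1, 9.76 and 10.4 CPM in Col-0, all arp6 libraries above all Col-0 libraries (log2 fold change 0.44 ± 0.14, edgeR adjusted p = 0.00661). ATMG00650 had 9.07, 9.34 and 8.79 CPM in arp6, against 7.06, 5.56 and 6.88 CPM in Col-0, again without overlap (log2 fold change 0.49 ± 0.17, edgeR adjusted p = 0.0123). ATMG00510 had 6.75, 5.78 and 4.63 CPM in arp6, against 2.97, 2.41 and 5.75 CPM in Col-0 (log2 fold change 0.65 ± 0.24, edgeR adjusted p = 0.0196). For this member the third Col-0 library lay within the arp6 range. ATMG01090, which a RefSeq note calls ATP synthase 9, had 25, 12 and 13 counts in arp6, against 11, 9 and 6 counts in Col-0 (log2 fold change 0.98 ± 0.41, edgeR adjusted p = 0.0368). Its groups did not overlap. A note names another member, ATMG01080, as F0-ATPase subunit 9, and that member had 18 counts over all libraries and was not tested.

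The 2 members lower in arp6 are among those with nuclear copies. ATMG00990, NADH dehydrogenase 3, whose opening bases are given above, had 3, 2 and 8 counts in arp6, against 13, 15 and 8 counts in Col-0 (log2 fold change -1.39 ± 0.52, edgeR adjusted p = 0.0209). As CPM the groups lay apart, with 0.316, 0.297 and 0.9503 in arp6 against 1.61, 1.57 and 1.00 in Col-0, but narrowly so for the third libraries. The copy AT2G07751 had a log2 fold change of 0.28 that missed the threshold (edgeR adjusted p = 0.653). ATMG01330, which has no name, had 2, 2 and 2 counts in arp6, against 6, 9 and 13 counts in Col-0, without overlap (log2 fold change -2.10 ± 0.66, edgeR adjusted p = 0.00459). AT2G07808, a transcribed pseudogene of chromosome 2 whose note names ATMG01330, was lower in arp6 too, by -1.56 (edgeR adjusted p = 0.00117), so both of this pair differed in the same direction.

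In arp6, 5 members were called without Col-0 replicate 2 and 5 without arp6 replicate 1, while ATMG01390, ATMG00020, ATMG01360 and ATMG01330 stayed called with any 1 library left out. The edgeR adjusted p was 0.0964 for ATMG00650 without Col-0 replicate 2, 0.096, 0.221 and 0.148 for ATMG00510 without Col-0 replicates 1 or 2 or arp6 replicate 1, and 0.0994, 0.13 and 0.245 for ATMG01090 without Col-0 replicates 2 or 3 or arp6 replicate 1. For ATMG00990 it was 0.0634, 0.07, 0.124 and 0.0817 without Col-0 replicates 1 or 2 or arp6 replicates 1 or 2. With library totals in place of TMM, ATMG00650, ATMG00510 and ATMG01090 were not called.

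The marker genes chosen for organs also differed in arp6. The 6 green tissue markers summed to between 37700 and 38260 CPM in arp6 libraries, against 28650 to 28950 CPM in Col-0. Of these markers 6 of 6 were called higher, where 24.2% of all genes tested were. The 12 root markers, 1 of them at 0 throughout and 2 of them tested, summed to between 256.5 and 262.7 CPM in arp6, against 357.3 to 373.6 CPM in Col-0, nearly all of it from PYK10, a root beta-glucosidase, which was called lower, while PIN2, an auxin carrier of roots, was called higher. In atchz1ab the same sums were 27820 to 27890 CPM for green tissue, below all Col-0 libraries, and 350.7 to 383.9 CPM for root. The green tissue markers were split there, with 3 of 6 called higher and 2 lower, where 6.15% and 5.55% of all genes tested were. Whether organ balance differed, and what part it had in the mitochondrial values, was not tested.

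In atchz1ab arp6 against Col-0, 10 of the 28 tested members were lower and 0 were higher, where 45.9% of all genes tested were called, 22.7% higher and 23.2% lower. The median over the tested members was -0.43, with values from -2.91 to 1.04, beside -0.01 over all genes. The leading members were close to Col-0: ATMG01390 fell by 0.06 ± 0.02 and ATMG00020 by 0.06 ± 0.02 on the log2 scale (edgeR adjusted p = 0.000519 and 0.0137). With library totals in place of TMM, both were lower by more, with log2 fold changes of -0.13 and -0.12. The larger changes lay in members with fewer counts.

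ATMG00070 had 2.28, 3.62 and 2.22 CPM in atchz1ab arp6, against 5.70, 5.77 and 6.38 CPM in Col-0, without overlap, and fell by 1.13 ± 0.24 on the log2 scale (edgeR adjusted p = 2.64e-05). ATMG00520 had 3, 3 and 3 counts in atchz1ab arp6, against 18, 15 and 18 counts in Col-0, without overlap (log2 fold change -2.29 ± 0.51, edgeR adjusted p = 9.25e-05). ATMG01330 had 2, 0 and 1 counts in atchz1ab arp6, against 6, 9 and 13 counts in Col-0 (edgeR adjusted p = 0.000808). All libraries of the combined line lay below those of Col-0, and the ratio of the summed counts, 3 against 28 and scaled for library size, was 0.121 with a 95% counting interval from 0.0236 to 0.393, which covers counting error only. Its partner AT2G07808 had a log2 fold change of -1.05 (edgeR adjusted p = 0.0257). AT2G07715, the partner of ATMG00560, was also lower than in Col-0, with a log2 fold change of -1.04 (edgeR adjusted p = 0.0436), while ATMG00560 itself was not called. ATMG00090 had 10.5, 10.4 and 8.88 CPM in atchz1ab arp6, against 15.7, 13.8 and 13.6 CPM in Col-0, without overlap (log2 fold change -0.53 ± 0.14, edgeR adjusted p = 0.00102). These 4 members kept their calls with any 1 library left out, as did ATMG01390.

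The other calls of this comparison were nearer to the threshold. ATMG00080 had 3.79, 4.15 and 4.86 CPM in atchz1ab arp6, against 7.30, 5.25 and 6.13 CPM in Col-0, without overlap (log2 fold change -0.54 ± 0.22, edgeR adjusted p = 0.0344). ATMG00060, ATMG00160 and ATMG01130 had log2 fold changes of -0.49, -0.56 and -0.82, with overlapping libraries (edgeR adjusted p = 0.0451, 0.048 and 0.0471). With Col-0 replicate 1 left out 6 members were called, and with atchz1ab arp6 replicate 1 left out also 6. Left-out libraries raised the edgeR adjusted p to 0.0601 and 0.062 for ATMG00020 (without Col-0 replicate 1 or atchz1ab arp6 replicate 3), to between 0.15 and 0.289 for ATMG00060 (without Col-0 replicate 1 or atchz1ab arp6 replicates 1 or 2) and to between 0.0579 and 0.171 for ATMG00080 (without Col-0 replicates 1 or 3 or atchz1ab arp6 replicates 1 or 2). For ATMG00160 it rose to between 0.056 and 0.323 (without Col-0 replicates 1 or 3 or atchz1ab arp6 replicates 1 or 3) and for ATMG01130 to between 0.0616 and 0.364 (without Col-0 replicates 2 or 3 or atchz1ab arp6 replicates 1 or 3).

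**Figure D4:**
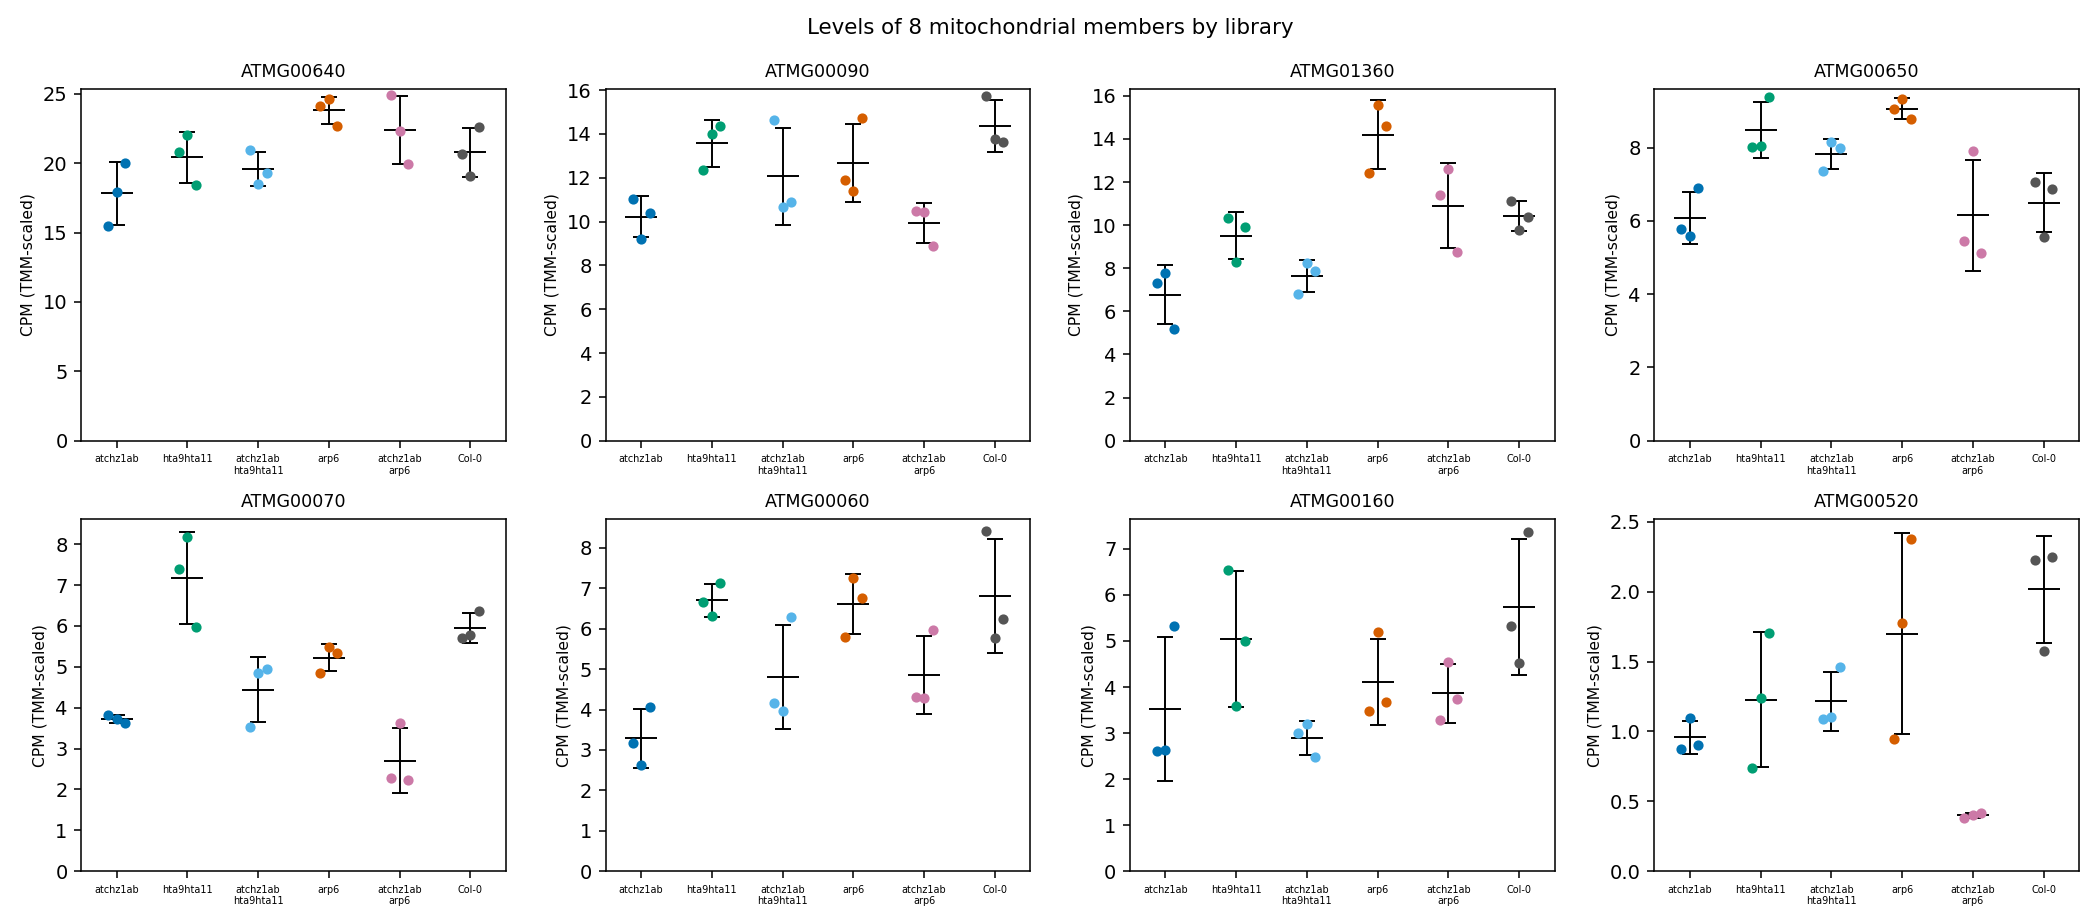
Levels in CPM after TMM scaling (vertical axes, from 0) of 8 members with fewer counts, in each library of the 6 genotypes; points are libraries and bars the mean ± SD. ATMG00640 differs little, with means from 17.8 CPM in atchz1ab to 23.8 CPM in arp6, while ATMG00520 lies at 0.399 CPM in atchz1ab arp6 against 2.02 CPM in Col-0, and ATMG00070 at 2.70 CPM against 5.95 CPM.

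Each combined line was also set against its parent, which asks what the atchz1ab mutations add to a line that already carries hta9-1 and hta11-2, or arp6-1. In atchz1ab hta9hta11 against hta9hta11, 3 of the 28 tested members were lower and 0 were higher, where 1.75% of all genes tested were called, 0.793% higher and 0.952% lower. ATMG00020 fell by 0.30 ± 0.02 and ATMG01390 by 0.21 ± 0.01 on the log2 scale (edgeR adjusted p = 1.71e-26 and 1.43e-23). ATMG00070 had 3.54, 4.84 and 4.95 CPM in atchz1ab hta9hta11, against 7.40, 8.17 and 5.96 CPM in hta9hta11, without overlap (log2 fold change -0.70 ± 0.20, edgeR adjusted p = 0.0367). Its adjusted p was 0.139, 0.239, 0.322 and 0.0561 in edgeR without hta9hta11 replicates 1 or 2 or atchz1ab hta9hta11 replicates 1 or 2. The median over the tested members was -0.28, beside -0.0001 over all genes.

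In atchz1ab arp6 against arp6, 6 of the 28 tested members were lower and 0 were higher, where 14.6% of all genes tested were called, 6.63% higher and 8.01% lower. ATMG00020 fell by 0.30 ± 0.02 and ATMG01390 by 0.27 ± 0.01 on the log2 scale (edgeR adjusted p = 6.43e-28 and 2.73e-33). ATMG00520 had 3, 3 and 3 counts in atchz1ab arp6, against 9, 12 and 20 counts in arp6, without overlap (log2 fold change -2.03 ± 0.54, edgeR adjusted p = 0.00302). ATMG00070 had 2.28, 3.62 and 2.22 CPM in atchz1ab arp6, against 4.85, 5.49 and 5.35 CPM in arp6 (log2 fold change -0.94 ± 0.24, edgeR adjusted p = 0.0025). ATMG00510 and ATMG00650 had log2 fold changes of -0.87 ± 0.26 and -0.56 ± 0.18 (edgeR adjusted p = 0.0104 and 0.0183). For each of these members the combined line lay below arp6 in all libraries. Of the tested partners in chromosome 2, AT2G07687 and AT2G07698 were lower than in arp6, and the others were not called. Their log2 fold changes were -1.37 for AT2G07687 and -0.63 for AT2G07698 (edgeR adjusted p = 0.00733 and 0.00687). The median over the tested members was -0.42, beside 0.0005 over all genes.

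Against arp6, ATMG01390, ATMG00020 and ATMG00070 stayed called with any 1 library left out. Without arp6 replicate 3 the edgeR adjusted p of ATMG00520 was 0.0597. Without arp6 replicate 1 or atchz1ab arp6 replicates 1 or 3 it was 0.109, 0.074 and 0.0534 for ATMG00510 and 0.052, 0.116 and 0.131 for ATMG00650. The sum of the 6 green tissue markers was 33890 to 35260 CPM in atchz1ab arp6 libraries, against 37700 to 38260 CPM in arp6. Of these markers 6 of 6 were called lower, where 8.01% of all genes tested were. The root markers summed to 299.0 to 312.1 CPM in atchz1ab arp6, against 256.5 to 262.7 CPM in arp6. The part of organ balance in the differences of the members was not tested.

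The comparisons against Col-0 share its 3 libraries and are given side by side only. For ATMG01390 the log2 fold changes were -0.53, -0.10, -0.31, 0.21 and -0.06 in atchz1ab, hta9hta11, atchz1ab hta9hta11, arp6 and atchz1ab arp6, and for ATMG00020 they were -0.57, -0.18, -0.47, 0.24 and -0.06. Over the 7 comparisons, 42 of 196 tests of a member were called, in 16 members. ATMG00640 and ATMG00660, the third and the twelfth by counts, were called in none of the 7. ATMG00640 had 15.5, 17.9 and 20.02 CPM in atchz1ab, 20.8, 22.0 and 18.4 in hta9hta11, 21.0, 18.5 and 19.3 in atchz1ab hta9hta11, 24.1, 24.6 and 22.7 in arp6 and 24.9, 22.4 and 19.98 in atchz1ab arp6, against 20.7, 19.1 and 22.6 CPM in Col-0. Its arp6 libraries lay just above those of Col-0, and the other genotypes overlapped Col-0. ATMG00660 had 2.95, 3.83 and 2.04 CPM in atchz1ab, 2.96, 3.83 and 3.73 in hta9hta11, 3.17, 4.84 and 2.47 in atchz1ab hta9hta11, 4.32, 2.37 and 2.97 in arp6 and 2.40, 2.81 and 2.36 in atchz1ab arp6, against 3.34, 2.52 and 3.63 CPM in Col-0. Every genotype overlapped Col-0. The 31 untested members had between 12 counts (ATMG01020) and 109 counts (ATMG01220) over the 18 libraries. The fall with atchz1ab differed between backgrounds for both leading members. The interaction of atchz1ab with hta9hta11 was 0.33 ± 0.02 for ATMG01390 and 0.27 ± 0.03 for ATMG00020 on the log2 scale (edgeR adjusted p = 4.09e-27 and 8.59e-15), so the fall was smaller in hta9hta11 than in the wild-type background. That of atchz1ab with arp6 was 0.27 ± 0.02 and 0.27 ± 0.03 (edgeR adjusted p = 2.25e-21 and 3.4e-15), a smaller fall in arp6 as well. These were the 2 of 28 tested members called in each interaction. Over all genes tested, 7.15% were called with hta9hta11 (3.41% higher, 3.74% lower) and 13.7% with arp6 (6.38% higher, 7.35% lower). In either direction, the members called were near the first share and below the second.

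**Figure D5:**
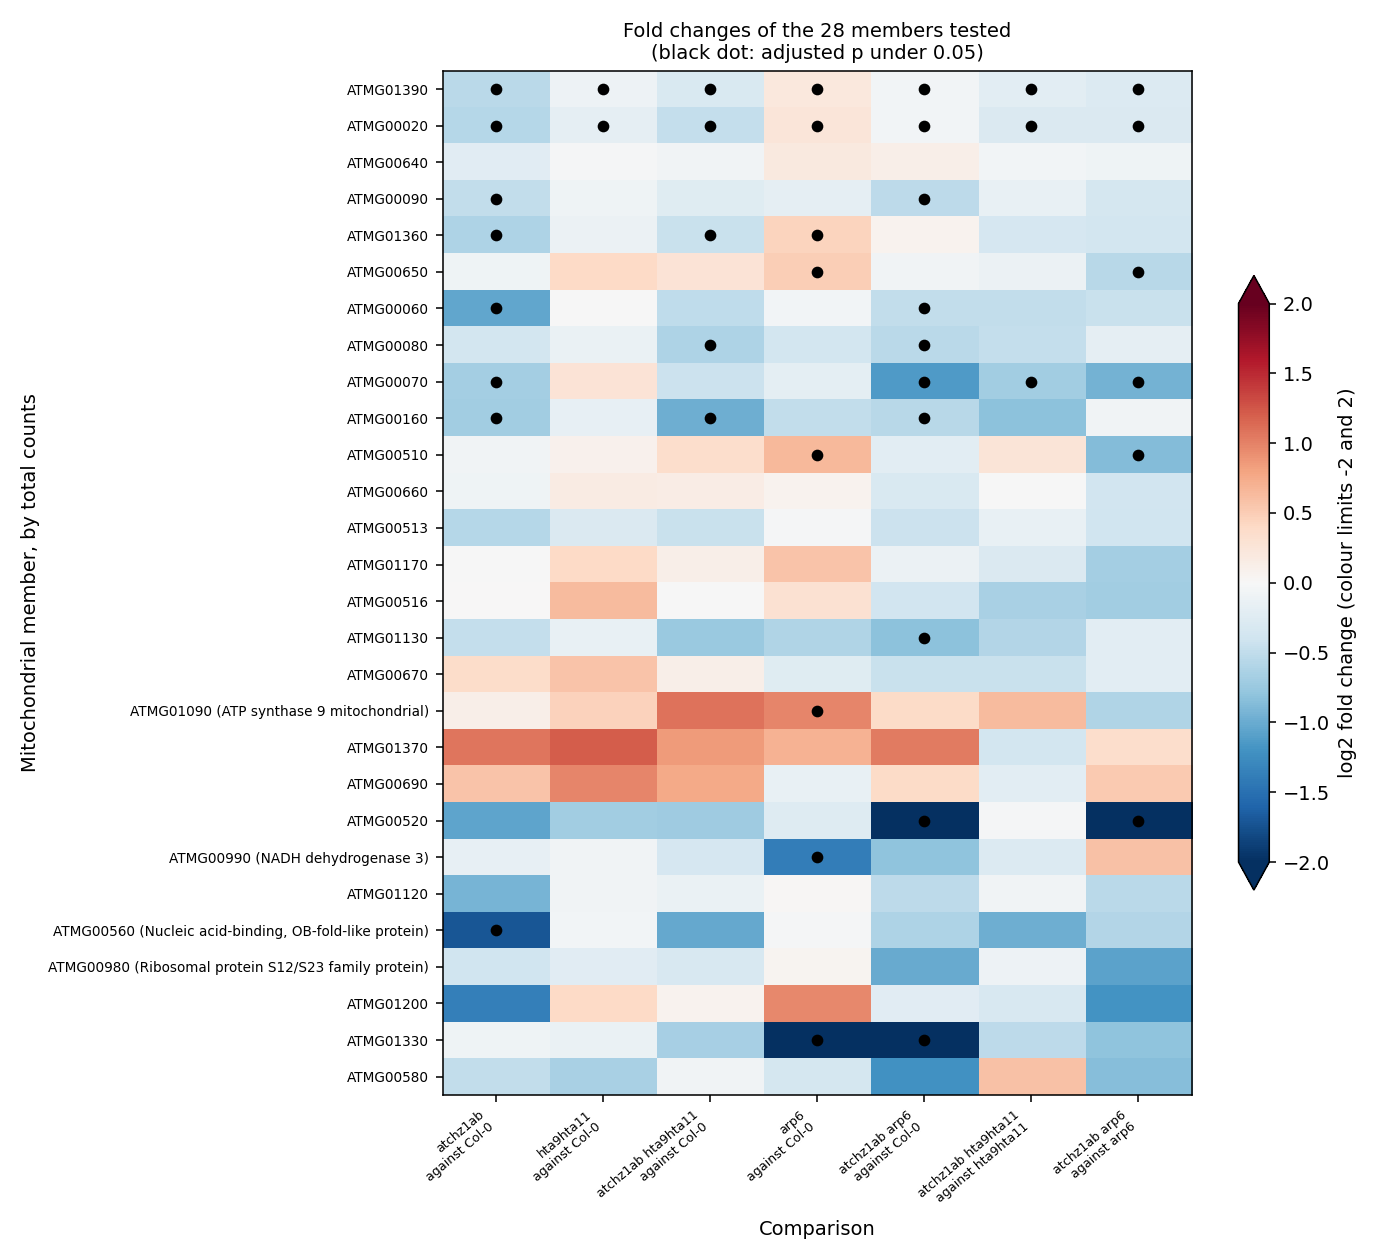
Log2 fold changes of the 28 tested members (vertical, ordered by counts) in 7 comparisons (horizontal), from blue for lower to red for higher in the genotype named first, with a black dot at an edgeR adjusted p under 0.05; names in brackets are those of RefSeq notes. ATMG01390 and ATMG00020 carry a dot in every column, red only in arp6 against Col-0 (0.21 and 0.24), and the deepest blues are ATMG00520 and ATMG01330 in columns with arp6.

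The precision of the 2 leading members rests on replicates that lie close together. The common coefficient of variation between replicates was 3.08%, and with a coefficient fixed at 10% (0.1) instead, the falls in atchz1ab stayed called for both and that in atchz1ab hta9hta11 against Col-0 for ATMG00020, and no other of their changes was called. In arp6 the edgeR adjusted p was then 0.169 for ATMG01390 and 0.101 for ATMG00020, and in atchz1ab hta9hta11 it was 0.144 for ATMG01390.

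Nuclear genes that build or serve the respiratory chain were read from 3 lists. Of 42 nuclear respiratory chain subunits, 0 were higher and 3 lower in atchz1ab than in Col-0, 0 and 6 in hta9hta11, 0 and 1 in atchz1ab hta9hta11, 8 and 10 in arp6, and 7 and 6 in atchz1ab arp6. The background for this and the next lists is the share of all genes tested that was called: 6.15% higher and 5.55% lower in atchz1ab, 5.98% and 5.26% in hta9hta11, 6.19% and 5.32% in atchz1ab hta9hta11, 24.2% and 25.5% in arp6, and 22.7% and 23.2% in atchz1ab arp6. Calls in either direction were fewer than that share in 4 of the 5 comparisons, and in hta9hta11 the 6 lower members of 42 were above it. Their medians, from -0.07 in atchz1ab to 0.04 in atchz1ab arp6, were near those of all genes. SDH2-1, the iron-sulfur subunit of complex II, averaged 21.0 ± 2.07 CPM in arp6 and 49.3 ± 4.44 CPM in Col-0 (SD, n = 3 each), a log2 fold change of -1.22 ± 0.08 (edgeR adjusted p = 1.25e-26). It was also lower in atchz1ab, at 39.5 ± 0.862 CPM (log2 fold change -0.31 ± 0.07, edgeR adjusted p = 0.000956). COX17, a copper chaperone for complex IV, averaged 2.21 ± 0.645 CPM in arp6 and 5.70 ± 1.02 CPM in Col-0 (log2 fold change -1.32 ± 0.25, edgeR adjusted p = 3.71e-06). FRO1, a subunit of complex I, averaged 49.6 ± 4.02 CPM in arp6 and 83.4 ± 1.96 CPM in Col-0 (log2 fold change -0.74 ± 0.06, edgeR adjusted p = 1.36e-22). MGP1, a subunit of the ATP synthase, went the other way, at 223.4 ± 2.49 CPM in arp6 and 199.3 ± 8.18 CPM in Col-0 (log2 fold change 0.16 ± 0.03, edgeR adjusted p = 2.13e-05).

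Of 33 nuclear genes that act on mitochondrial RNA or DNA, 1 was higher and 0 lower in atchz1ab than in Col-0, 1 and 0 in hta9hta11, 1 and 1 in atchz1ab hta9hta11, 6 and 6 in arp6 and 7 and 6 in atchz1ab arp6. The calls were fewer than the share over all genes would give in each of the 5, with 11.7% called over all genes in atchz1ab and 49.7% in arp6. MGP3 (AT1G68990), an RNA polymerase of mitochondria, averaged 41.1 ± 1.98 CPM in atchz1ab and 37.7 ± 1.25 CPM in Col-0, below the threshold (log2 fold change 0.12 ± 0.08, edgeR adjusted p = 0.35). In arp6 it averaged 45.8 ± 2.11 CPM and was called higher (log2 fold change 0.29 ± 0.08, edgeR adjusted p = 0.000895). MORF8, an RNA editing factor of the organelles, averaged 174.0 ± 3.001 CPM in atchz1ab arp6 and 146.5 ± 6.26 CPM in Col-0 (log2 fold change 0.25 ± 0.04, edgeR adjusted p = 5.77e-08). PMH1, an RNA helicase of mitochondria, rose by 0.33 ± 0.08 in the same comparison and MTERF15, of the transcription termination factor family, fell by 0.81 ± 0.20 on the log2 scale (edgeR adjusted p = 0.00019 and 0.000526).

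The third list holds genes known to respond to mitochondrial dysfunction. Of 18 tested out of 19 listed, 5 were higher and 1 lower in atchz1ab than in Col-0, 4 and 3 in hta9hta11, 6 and 0 in atchz1ab hta9hta11, 2 and 11 in arp6 and 6 and 9 in atchz1ab arp6, with medians of 0.28, 0.02, 0.19, -0.68 and -0.50. Over all genes tested, 6.15% were higher and 5.55% lower in atchz1ab, 5.98% and 5.26% in hta9hta11, 6.19% and 5.32% in atchz1ab hta9hta11, 24.2% and 25.5% in arp6 and 22.7% and 23.2% in atchz1ab arp6. AOX1A, the alternative oxidase that bypasses complexes III and IV, averaged 203.1 ± 3.29 CPM in atchz1ab and 126.1 ± 3.73 CPM in Col-0 (log2 fold change 0.69 ± 0.04, edgeR adjusted p = 2.74e-32). In arp6 it averaged 60.9 ± 4.11 CPM (log2 fold change -1.05 ± 0.05, edgeR adjusted p = 2.82e-42). NAC13 (AT1G32870), a transcription factor of the mitochondrial stress response, had log2 fold changes of 0.50 ± 0.08 in atchz1ab and -1.17 ± 0.11 in arp6 (edgeR adjusted p = 8.87e-07 and 6.06e-19). UGT74E2, a glucosyltransferase of the same response, had log2 fold changes of 0.32 ± 0.04 in atchz1ab and -2.08 ± 0.05 in arp6 (edgeR adjusted p = 8.11e-11 and 2.25e-67). NDA1, an alternative NAD(P)H dehydrogenase of the inner membrane that is also regulated by light, was higher in arp6, at 37.7 ± 3.15 CPM against 14.4 ± 0.977 CPM in Col-0 (log2 fold change 1.40 ± 0.10, edgeR adjusted p = 3.08e-25). In atchz1ab it stood at 12.8 ± 1.24 CPM, with a log2 fold change of -0.18 ± 0.12 that missed the threshold (edgeR adjusted p = 0.416).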

How the data were processed

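The authors deposited 1 table of raw read counts per gene, with no normalization and a column for each of the 18 libraries, of which 0 were left unused. The submitters' processing notes name cutadapt, HISAT2, SAMtools and featureCounts and the build TAIR10; versions, settings, strand use and the treatment of reads with several matches remain not given in the sources used here. Per the labels' protocols, a KAPA stranded mRNA-seq kit was used.

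All 18 libraries entered 1 quasi-likelihood fit in edgeR 4.0.16 (R 4.3.3, limma 3.58.1) with TMM scaling and filterByExpr, genotype as factor and 12 residual degrees of freedom. The 18906 genes kept, 28 of them members, were adjusted together by Benjamini-Hochberg and called at an adjusted p under 0.05. Interactions took the difference between backgrounds in the change with atchz1ab. Shares and ratios were compared by exact permutation tests. CPM use library sizes after TMM, and 1 count is worth more CPM in a shallower library; intervals cover counting error only. Replicates differed by more than sampling noise in all 18 pairs (chi-square per degree of freedom 1.43 to 1.69).

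Matches between the mitochondrial and nuclear sequences came from BLAST 2.17.0 on RefSeq's TAIR10.1, whose nuclear chromosomes have the sequence of TAIR10 but whose mitochondrial sequence differs, so no mitochondrial coordinates are given for the table's genes. The edgeR procedure was tested on simulated data. Members, marker lists and nuclear lists were chosen with earlier results of these data known. Members named are the 12 with the highest mean CPM, those called with at least a 2-fold change, and others called in a comparison; nuclear examples are the 4 per list with the smallest adjusted p against Col-0. The genes of the matching stretch were chosen after seeing the data. Roles planned for grouping members were not used to name or group them, since the annotation does not give them, except that 1 planned role list (ATMG01390, ATMG00020 and ATMG01380) was left out of the share as an alternative. Alternatives were RLE factors, library totals, scaling on nuclear genes, no filter, DESeq2 1.42.0, a fixed coefficient of variation, fits of the compared genotypes only, the replicate block, left-out libraries and, for shares, left-out members.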

Additional observations from a re-analysis of the deposited data

Results flagged for a closer look

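In 4 cases the change with atchz1ab was tested to differ between backgrounds, 2 of 28 tested members in each interaction. Over all genes tested, 7.15% were called in the interaction with hta9hta11 and 13.7% in that with arp6. The members called were thus near the first share and below the second. For ATMG01390 the change with atchz1ab was larger in the wild-type background than in hta9hta11, with an interaction of 0.33 on the log2 scale (edgeR adjusted p = 4.09e-27). For ATMG00020 the interaction with hta9hta11 was 0.27 (edgeR adjusted p = 8.59e-15). The interactions of atchz1ab with arp6 were 0.27 for ATMG01390 and 0.27 for ATMG00020 (edgeR adjusted p = 2.25e-21 and 3.4e-15). Over 20 alternatives each, these 4 interactions kept their sign and lay between 0.25 and 0.34, and all 4 missed the threshold with the coefficient of variation fixed at 0.1 (edgeR adjusted p = 0.597 to 0.84).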

How the results depend on the processing

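Of 663 alternative values of the 46 changes named, 559 kept their side of the threshold, 104 no longer passed it and 0 changed sign. Of the 46, 11 passed under every alternative in which the member was tested. Among these, both changes of ATMG01330 have 13 alternatives where the other members have 14 or more, since it was not tested in 1 setting. Changes of ATMG00560, ATMG00990 and ATMG00520 also lack 1 alternative each. Counts of members called moved by over 1.5 times under 2 settings and with some left-out libraries. DESeq2 called 5 members in atchz1ab, 3 in atchz1ab hta9hta11 and 6 in atchz1ab arp6, each against Col-0. It gave an adjusted p for 55, 48 and 59 members in these, where edgeR tested 28. A coefficient of variation fixed at 0.1 gave 5 calls for atchz1ab, 0 for hta9hta11 and 3 for the line combining them, each against Col-0. Of these last 3, ATMG00020 and ATMG00160 were lower and kept their calls, and 1 was a higher member not called in the fit as reported. The same setting gave 0 in atchz1ab hta9hta11 against hta9hta11, 3 in atchz1ab arp6 against arp6 and 0 in each interaction. In the 4 of these left with 0 (hta9hta11 against Col-0, atchz1ab hta9hta11 against hta9hta11, and the interactions with hta9hta11 and arp6), an unadjusted p under 0.05 was reached by 5, 8, 3 and 4 members in the edgeR fit as reported. DESeq2 called 2 members in each, of 43, 34, 43 and 48 to which it gave an adjusted p. With each library left out in turn the counts ran from 5 to 7 in atchz1ab, 2 to 5 in atchz1ab hta9hta11, 5 to 8 in arp6 and 6 to 9 in atchz1ab arp6. The share without ATMG01390, ATMG00020 and ATMG01380 (the last left out as part of a planned list) changed sign to 0.000317 in hta9hta11 and -0.000235 percentage points in arp6. By construction this sum lacks the 2 leading members. In CPM after TMM the same 56 members kept the sign of the full sum in arp6, at 121.9 against 114.6 in Col-0, with overlapping libraries. The ratio of ATMG01390 to ATMG00020 in atchz1ab arp6 minus Col-0 turned to 0.00607 without Col-0 replicate 1 and 0.00609 without Col-0 replicate 2, with left-out libraries giving -0.0314 to 0.00609. Replicates share only a number: deviations of same-numbered libraries correlated between -0.0267 and 0.0296 over 45 pairs, with 0 over 0.1. A replicate block gave 8, 2, 5, 8, 8, 3 and 6 called members in the 7 comparisons and 2 in each interaction, against 10 without the block in atchz1ab arp6. Of the moves in this section the cause was not tested. Depth limits most members, since the median member had 101 counts over 18 libraries.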
